A study of Rattus norvegicus with 8 samples.

Results

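The genes described here encode the enzymes and chaperones that hydroxylate, fold and trim procollagen. 10 were chosen by name: the prolyl 4-hydroxylase genes P4ha1, P4ha2 and P4hb, the prolyl 3-hydroxylase complex genes P3h1 and Crtap, the procollagen chaperone genes Fkbp10 and Serpinh1, and the propeptide processing genes Pcolce, Bmp1 and Adamts2. They were matched to the gene names given with the counts, which cover 32623 rat genes, and 9 of the 10 were found. No gene is listed under the name Crtap. All 9 had enough counts to be tested, among 11682 tested genes.

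RNA was sequenced from the outflow veins of 8 Sprague Dawley rats, 21 days after the epigastric vein had been joined to the femoral artery to make an arteriovenous fistula (AVF). In each rat a bilayer scaffold of electrospun nanofibers, with an outer PLA and an inner PLGA layer, had been wrapped around the vein next to the anastomosis. The scaffold was loaded with BAPN in 4 rats (BAPN 1 to 3 female, BAPN 4 male) and carried no drug in the other 4 (Vehicle 1 and 2 female, Vehicle 3 and 4 male). BAPN, or β-aminopropionitrile, irreversibly inhibits lysyl oxidases, so the groups differ in the drug that reached the vein wall from outside, and no group without a scaffold or without a fistula was part of the comparison. The rats were of an outbred stock, and each library came from 1 animal.

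Procollagen chains are modified and folded in the endoplasmic reticulum (ER) before they are secreted. Prolyl 4-hydroxylase, a tetramer of α subunits (P4ha1, P4ha2) and the β subunit P4hb, hydroxylates the prolines that make the triple helix stable at body temperature, and P4hb on its own is protein disulfide isomerase, a general folding enzyme. The complex of P3h1, Crtap and cyclophilin B hydroxylates single prolines and assists folding, Fkbp10 is a prolyl isomerase and chaperone, and Serpinh1 (HSP47) is a chaperone that binds the finished triple helix until it leaves the ER. Adamts2 removes the N-propeptide and Bmp1 the C-propeptide, the latter helped by the enhancer Pcolce, and fibrils form once these are gone. Lysyl oxidases act after these steps, on collagen outside the cell. In a fistula vein, fibroblasts and smooth muscle cells lay down the collagen of the thickening wall.

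Several library features moved with the groups. The total count was 45039451 to 52241007 in the BAPN libraries and 19548203 to 22442050 in the vehicle libraries, without overlap, so depth and treatment cannot be told apart by group, although thinning all libraries to the smallest total left the calls on the 9 genes as they were. Vehicle 4 stood apart in collagen: the summed level of Col1a1 and Col3a1, the main clients of these enzymes, came to 88450 CPM there, where CPM are counts scaled by each library's TMM-normalized total. It was between 25127 and 52912 CPM in Vehicle 1 to 3 and between 20193 and 32360 CPM with BAPN. The summed level of 10 fibroblast markers was 4652 to 6445 CPM with BAPN and 6820 to 9406 CPM with vehicle, that of 10 smooth muscle markers was 1785 to 4539 and 3652 to 6561 CPM, and that of 10 macrophage markers was 27880 to 41414 and 5581 to 22962 CPM. By edgeR's quasi-likelihood test, with p-values adjusted over all tested genes (FDR), 3 of the 10 fibroblast markers and 7 of the 10 smooth muscle markers were lower with BAPN, and 1 of the 10 macrophage markers was higher, where 9.25% of all tested genes were lower and 7.5% higher, so the macrophage count is near the background. In whole veins, fewer cells of a type and less RNA per cell cannot be told apart, and the part that these shifts had in the results below was not tested. Smooth muscle and endothelial markers of the labelled tissue, a fistula vein, were detected in every library.

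Adamts2, the N-propeptidase of procollagens I, II and III, was the only one of the 9 genes past the threshold. It is listed as ENSRNOG00000061484 and was at 249, 240.4, 169 and 191 CPM in BAPN 1 to 4 and at 485, 289.9, 472 and 553 CPM in Vehicle 1 to 4. Every BAPN library lay below every vehicle library, and the nearest pair was BAPN 1 and Vehicle 2. The BAPN mean was 212 ± 38.8 CPM and the vehicle mean 449.9 ± 112 CPM (SD, n = 4 each), so that the BAPN veins held 47.2% of the vehicle level. On the log2 scale the fold change was -1.08 (standard error 0.22), at an edgeR FDR of 0.0169 and a DESeq2 FDR of 4.18e-05. Adamts2 was past the edgeR threshold in 7 of the 8 fits that left out 1 library, with an FDR of 0.0527 and a log2 fold change of -1.05 without Vehicle 1. Among females alone, 3 BAPN against 2 vehicle rats, its log2 fold change was -0.82 (edgeR FDR 0.138).

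Of the 9 genes, 0 rose and 1 fell, against 7.5% and 9.25% of all tested genes (16.8% in either direction). 3 of the 9 had a log2 fold change above 0 and 6 one below 0, with a median of -0.46, and the median over all tested genes was 0.02. At an unadjusted p below 0.05, edgeR counted 3 of the 9, which were Adamts2, Bmp1 and P4ha1, the last with the opposite sign, where 35.8% of all tested genes had such a p. DESeq2 called Adamts2 and P4hb, or 2 of the 9, where it called 27.4% of all tested genes. By level alone, the groups did not overlap in 2 of the 9 genes, Adamts2 (BAPN lower) and P4hb (BAPN higher), where 24.7% of all tested genes were so separated (12.7% with BAPN higher and 11.9% with BAPN lower).

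**Figure D1:**
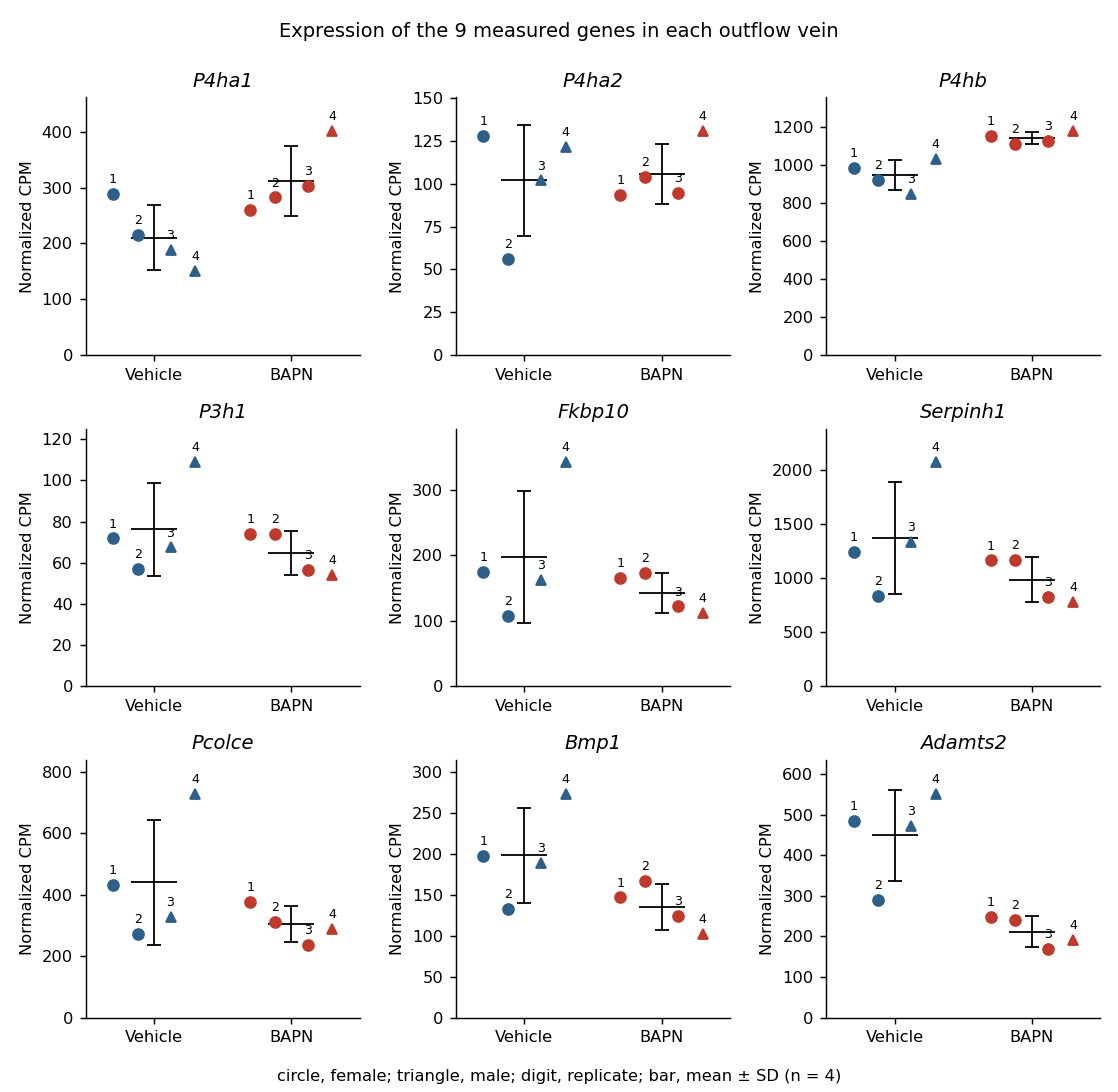
Normalized expression (CPM, vertical axes starting at 0) of the 9 genes in each outflow vein, vehicle in blue and BAPN in red, circles for females and triangles for males, with the replicate number beside each point and the mean ± SD (n = 4) as a bar. Adamts2 and P4hb are the 2 genes whose groups do not overlap, and Vehicle 4 is the highest point for P3h1, Fkbp10, Serpinh1, Pcolce, Bmp1 and Adamts2.

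Bmp1 and Pcolce, which act at the other end of the procollagen molecule, had lower means with BAPN but did not pass the test. Bmp1, the C-proteinase, was at 147, 167, 124 and 102 CPM in BAPN 1 to 4 and at 197, 133, 189 and 274 CPM in Vehicle 1 to 4. Vehicle 2 lay among the BAPN libraries, and the other 3 vehicle libraries lay above all of them. The means were 135 ± 28.1 and 198 ± 58.1 CPM (SD, n = 4 each), with a log2 fold change of -0.55 (standard error 0.23, edgeR FDR 0.116). Without Vehicle 2 the edgeR FDR of Bmp1 was 0.0441 and its log2 fold change -0.70, and without Vehicle 4 these were 0.259 and -0.36. Among females alone they were 0.638 and -0.18.

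Pcolce, the enhancer of the C-proteinase, was at 377, 311, 236 and 289 CPM in BAPN 1 to 4 and at 431, 272, 327 and 729 CPM in Vehicle 1 to 4. Vehicle 1 and Vehicle 4 lay above all BAPN libraries, and the other vehicle libraries lay among them. The log2 fold change was -0.54 (standard error 0.30, edgeR FDR 0.223), -0.18 without Vehicle 4 and -0.19 among females alone. The difference of Adamts2 from Bmp1 and Pcolce was not itself tested.

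Serpinh1, the collagen-specific chaperone, differed more within the vehicle group than between the groups. It was at 1163, 1170.0, 825 and 782 CPM in BAPN 1 to 4 and at 1237, 836, 1336 and 2068 CPM in Vehicle 1 to 4. Vehicle 2 lay at the level of BAPN 3, while Vehicle 4 lay 2.47 times above Vehicle 2. The log2 fold change was -0.48 (standard error 0.28, edgeR FDR 0.246) and -0.21 without Vehicle 4. Among females alone it was 0.02, so that its sign rests on the male libraries.

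Fkbp10, whose product helps procollagen chains fold, spread even more within the vehicle group. It was at 166, 172, 122 and 112 CPM in BAPN 1 to 4 and at 175, 108, 163 and 342 CPM in Vehicle 1 to 4. Outside Vehicle 4 the groups shared 1 range, and the coefficient of variation was 21.3% with BAPN and 51.3% with vehicle, where the medians over all tested genes were 15.3% and 17.9%. The log2 fold change was -0.46 (standard error 0.32, edgeR FDR 0.322), -0.06 without Vehicle 4 and 0.12 among females alone. Neither direction can be given to Fkbp10 from these 8 rats.

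P3h1, the catalytic subunit of the prolyl 3-hydroxylase complex, was at 74.0, 73.9, 56.6 and 54.2 CPM in BAPN 1 to 4 and at 71.9, 57.1, 67.5 and 109 CPM in Vehicle 1 to 4. Again only Vehicle 4 left the common range. Its log2 fold change was -0.24 (standard error 0.20, edgeR FDR 0.42), -0.02 without Vehicle 4 and 0.08 among females alone. Its partner Crtap was not found by name. The name Crtapl1, which RefSeq gives as a synonym of Crtap, stands for a pair of listed genes, of which ENSRNOG00000009878 had a BAPN mean of 113 ± 15.6 CPM and a vehicle mean of 98.3 ± 27.5 CPM (SD, n = 4 each), a log2 fold change of 0.20 (standard error 0.20, edgeR FDR 0.477). The other, ENSRNOG00000048343, had 0 to 2 counts in a library and was not tested. Neither is counted among the 9 genes.

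P4hb, the β subunit of prolyl 4-hydroxylase, had a higher mean with BAPN. It was at 1157, 1113, 1128 and 1181 CPM in BAPN 1 to 4 and at 986, 923, 850.4 and 1036 CPM in Vehicle 1 to 4. All 4 BAPN libraries lay above all 4 vehicle libraries, within a narrow range, and the coefficient of variation was 2.65% with BAPN and 8.45% with vehicle. The means were 1145 ± 30.3 and 949 ± 80.2 CPM (SD, n = 4 each), with a log2 fold change of 0.27 (standard error 0.13). P4hb was not past the threshold in edgeR (FDR 0.178, and 0.165 to 0.311 with each library left out), and was past it in DESeq2 (FDR 0.0311) but not in DESeq2 with sex as a covariate (FDR 0.0741). The exact two-sided permutation test on its log2 CPM gave p = 0.0286, unadjusted, the smallest that 4 rats against 4 allow.

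P4ha1, the more widely used α subunit, was at 260.2, 283, 303 and 401 CPM in BAPN 1 to 4 and at 288, 215, 188 and 150.4 CPM in Vehicle 1 to 4. Vehicle 1 lay among the BAPN libraries and the other vehicle libraries lay below them, Vehicle 4 the lowest, which is the reverse of its place for the chaperones. Its log2 fold change was 0.57 (standard error 0.22, edgeR FDR 0.0963, DESeq2 FDR 0.0543). With each library left out it ran from 0.41 to 0.76 with no edgeR FDR below 0.0648. In the males, the 1 BAPN rat was at 401 CPM and the mean of the 2 vehicle rats was 169 CPM, and in the females the means were 282 and 251.97 CPM. The interaction of sex and treatment was 1.08 on the log2 scale with an edgeR FDR of 0.269, and it was past the threshold for 0 of the 11682 genes, 1442 of which had an unadjusted p below 0.05.

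P4ha2, the other α subunit, was at 93.5, 104, 94.8 and 131 CPM in BAPN 1 to 4 and at 128, 56.2, 102 and 122 CPM in Vehicle 1 to 4. Vehicle 2 was the lowest library and the rest shared 1 range. The log2 fold change was 0.05 (standard error 0.26, edgeR FDR 0.892) and turned to -0.15 without Vehicle 2, -0.08 without BAPN 4 and -0.01 when libraries were scaled by total counts.

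**Figure D2:**
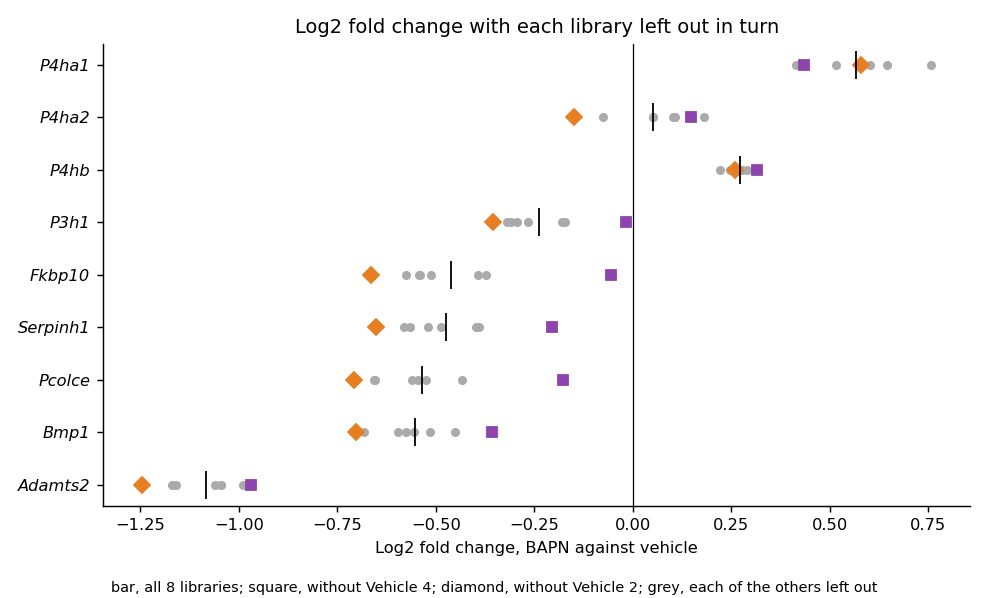
Log2 fold change of each of the 9 genes, BAPN against vehicle, in all 8 libraries (bar) and with each library left out in turn (points), the fit without Vehicle 4 as a purple square and the fit without Vehicle 2 as an orange diamond. Without Vehicle 4 the values of P3h1, Fkbp10, Serpinh1 and Pcolce move to -0.02, -0.06, -0.21 and -0.18, while Adamts2 stays between -1.25 and -0.97.

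Each of the 9 genes was compared with collagen expression from library to library. Over the 8 libraries, the log2 CPM of Serpinh1 correlated with that of Col1a1 with a Pearson r of 0.96 and a Spearman rho of 0.93 (exact permutation test over all 40320 pairings, p = 0.000223 and 0.00223). Adjusted over all 11682 tested genes these were 0.0409 and 0.0893. Only 0.248% of tested genes had an r as high as Serpinh1. Without Vehicle 3 and Vehicle 4, the 2 libraries farthest from the median of Col1a1, r was 0.92 over 6 libraries (exact permutation p = 0.0236), and as deviations from the group means it was 0.96.

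The r with Col1a1 was 0.92 for Bmp1, 0.91 for Fkbp10, 0.89 for Pcolce, 0.88 for P3h1 and 0.87 for Adamts2. Their Spearman rho were 0.90, 0.79, 0.88, 0.69 and 0.81, and without Vehicle 3 and Vehicle 4 their r were 0.84, 0.88, 0.95, 0.87 and 0.79. It was 0.41 for P4ha2 and -0.39 for P4hb, and P4ha1 had an r of -0.78 (exact permutation p = 0.0219, adjusted p = 0.107) that was -0.10 without Vehicle 3 and Vehicle 4, so that this relation rests on those libraries. For Serpinh1, Bmp1 and Adamts2 the exact permutation p of a positive r, adjusted over all tested genes, was 0.0409, 0.0409 and 0.0469, which is 3 of the 9 genes where 3.12% of all tested genes passed. The adjusted p of Fkbp10 (0.0513), P3h1 (0.0622) and Pcolce (0.0656) missed the threshold, and no test of a difference between genes in this respect was run. By Spearman rho 0 of the 9 passed after adjustment, as did 0.0% of all tested genes, and 5 of the 9 had an unadjusted p below 0.05 with a positive rho, where 13.0% of all tested genes did. With 1 library left out the count of 3 was 0 in 6 of the 8 cases, where fewer pairings limit p. As deviations from the group means it was also 0, but pairings within groups limit p further. Even Col3a1, at an r of 0.98, had an adjusted exact permutation p of 0.229 there, so this 0 decides nothing. All points share the library and its scaling, and the macrophage and fibroblast marker sums given above moved over the same libraries.

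**Figure D3:**
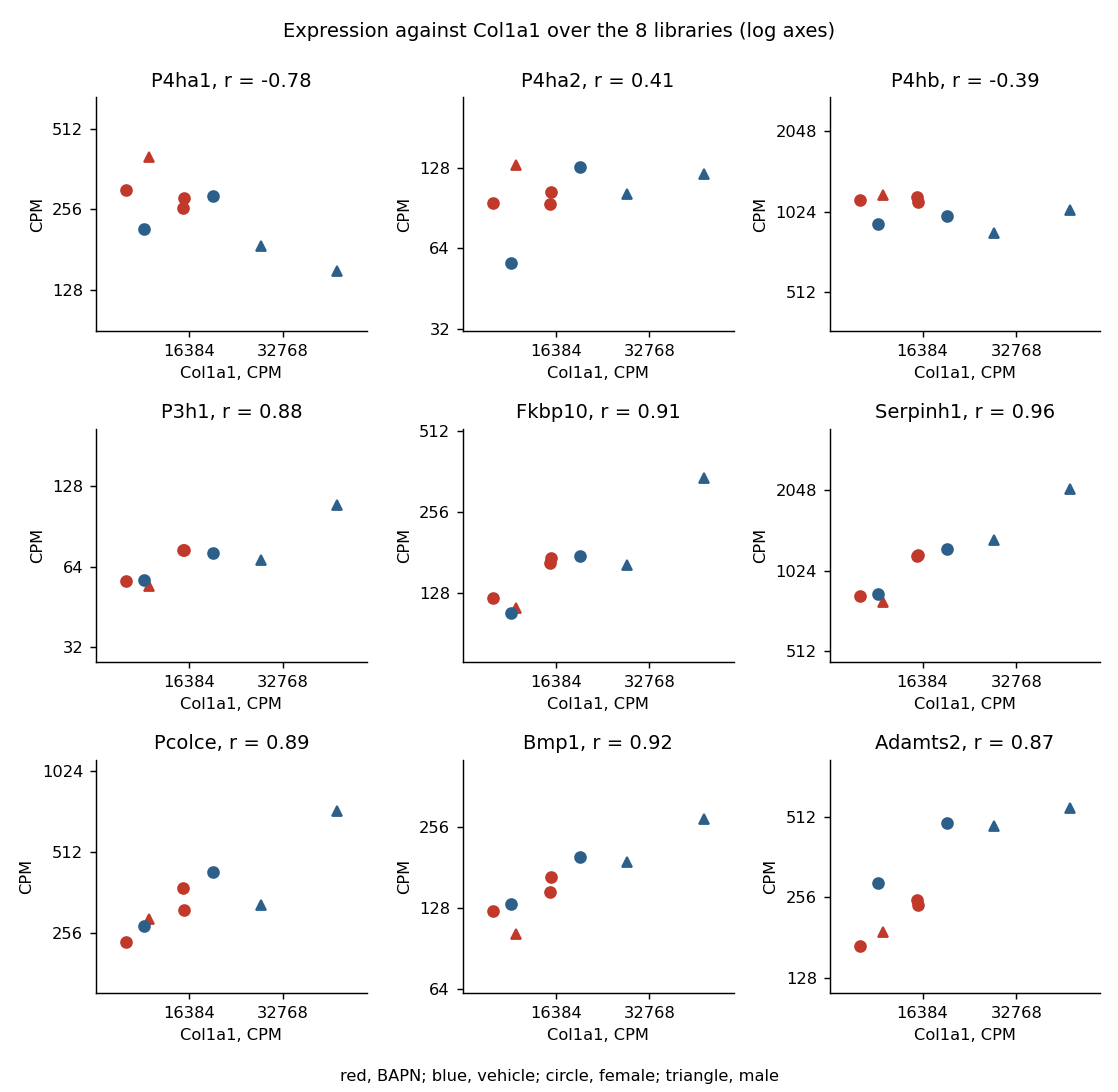
Expression of each of the 9 genes against Col1a1 over the 8 libraries, both in CPM on log axes of equal span, BAPN in red and vehicle in blue, circles for females and triangles for males. Serpinh1 (r = 0.96), Bmp1 (0.92) and Fkbp10 (0.91) climb with Col1a1 through both groups, P4hb (-0.39) stays nearly level, and P4ha1 (-0.78) is lowest where Col1a1 is highest.

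The highest library, and the lowest among the vehicle libraries, were the same for most of the genes. 6 of the 9, all but the prolyl 4-hydroxylase subunits, had their highest value in Vehicle 4, where 21.8% of all tested genes had theirs. 7 of the 9 had their lowest vehicle value in Vehicle 2, as did 28.9% of all tested genes. Vehicle 4 exceeded Vehicle 2 by 3.17 times for Fkbp10, 2.68 times for Pcolce, 2.47 times for Serpinh1, 2.16 times for P4ha2 and 2.06 times for Bmp1, and by 1.91 times for P3h1 and for Adamts2. For P4hb the ratio was 1.12 and for P4ha1 0.698. Both are vehicle rats, a male and a female. For each of the 6 genes the difference in CPM between these rats exceeded the difference between the group means. Vehicle 4 was also the lowest vehicle library in summed macrophage markers, at 5581 CPM against 15687 to 22962 CPM in Vehicle 1 to 3, and the highest of all libraries in smooth muscle markers, at 6561 CPM. The part of these in the levels was not tested.

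The amount of each transcript per collagen transcript was then compared, as CPM per 1000 CPM of Col1a1 and Col3a1 together. This ratio does not depend on how libraries were scaled. Over all tested genes its median was 0.83 higher with BAPN on the log2 scale, because the denominator had a lower mean there (Col1a1 log2 fold change -1.002, edgeR FDR 0.118, DESeq2 FDR 0.0278, and Col3a1 -0.84, edgeR FDR 0.119, DESeq2 FDR 0.0273). Fkbp10 was at 5.23, 5.33, 6.04 and 4.37 CPM per 1000 collagen CPM in BAPN 1 to 4 and at 4.24, 4.29, 3.07 and 3.86 in Vehicle 1 to 4. It was the only one of the 9 genes whose groups did not overlap on this scale, where 10.7% of all tested genes lay apart with BAPN higher and 11.1% in either direction. The log2 difference of Fkbp10 was 0.44 (exact two-sided permutation p = 0.0286, unadjusted).

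Per 1000 collagen CPM, Serpinh1 averaged 36.1 ± 4.26 in BAPN veins and 28.0 ± 4.49 in vehicle veins (SD, n = 4 each), a log2 difference of 0.37 (exact permutation p = 0.0571). The differences of P3h1 (0.59), Pcolce (0.35) and Bmp1 (0.27) were also smaller than the 0.83 of the median tested gene, with exact permutation p of 0.0571, 0.143 and 0.314. P4ha1 (1.39), P4hb (1.07) and P4ha2 (0.91) lay above that median, with exact permutation p of 0.0571, 0.0857 and 0.0571. Adamts2 was the only one of the 9 with a negative difference (-0.26, exact permutation p = 0.286). It averaged 7.78 ± 0.441 CPM per 1000 collagen CPM in BAPN veins and 9.62 ± 2.59 in vehicle veins (SD, n = 4 each), and Vehicle 4, at 6.25, was the lowest of all libraries. Over all 8 rats the Adamts2 groups thus overlapped through Vehicle 4 alone. Without that library, and also in females alone, which leave it out, every BAPN library therefore lay below every vehicle library for Adamts2. In these subsets 1.69% and 8.6% of all tested genes lay apart with BAPN lower. The separation of Adamts2 there follows from the overlap already described and is no further test.

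**Figure D4:**
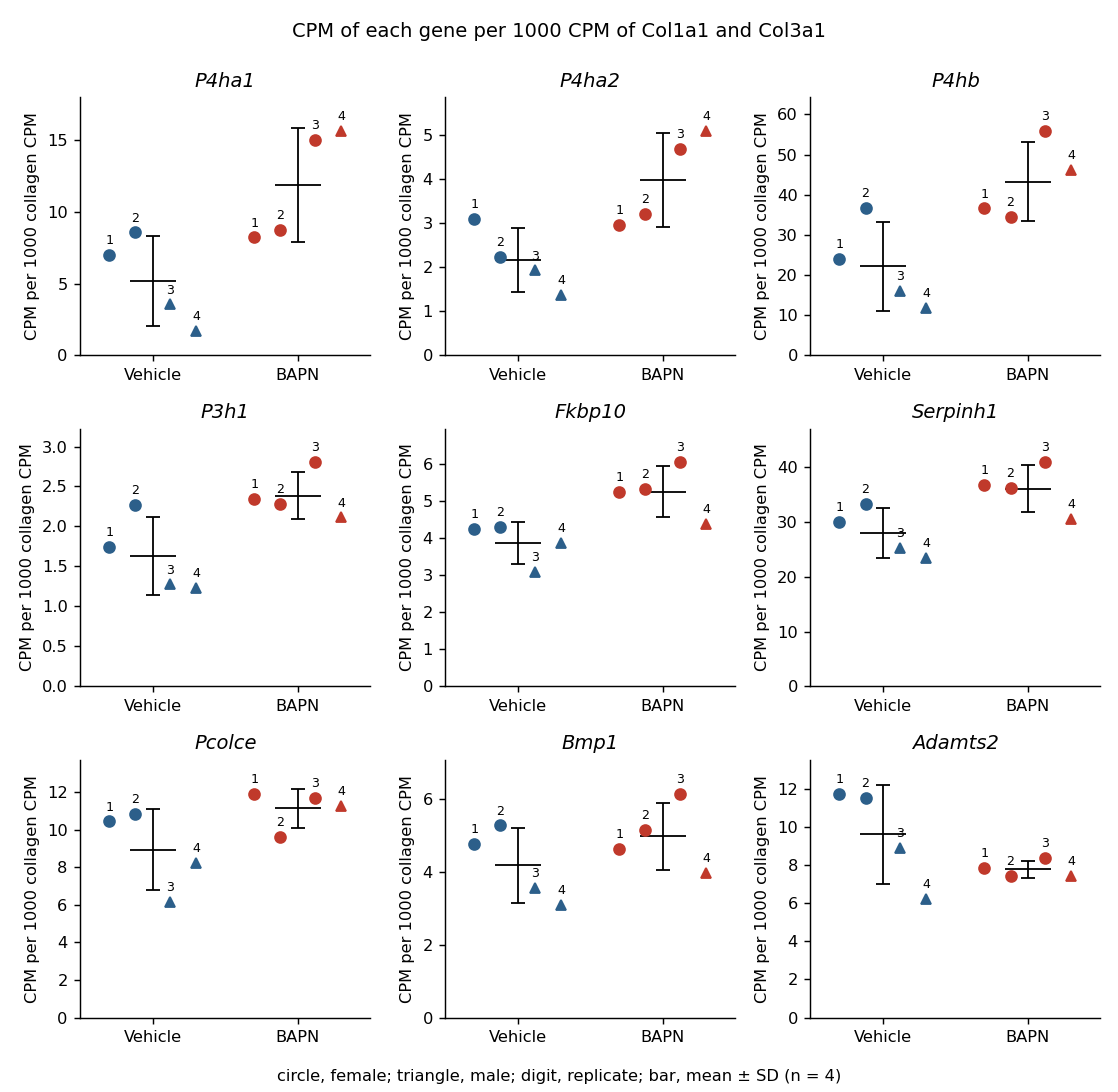
CPM of each of the 9 genes per 1000 CPM of Col1a1 and Col3a1 in each library, axes starting at 0, vehicle in blue and BAPN in red, circles for females and triangles for males, with the mean ± SD (n = 4). Fkbp10 is the one gene whose groups do not overlap, and Adamts2 is the one with a lower mean with BAPN.

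Other genes were read from lists of the same pathway. Of 12 tested genes that modify procollagen in the ER besides the 9, 0 were past the edgeR threshold, 1 had an unadjusted p below 0.05, and DESeq2 called 0, against 16.8%, 35.8% and 27.4% of all tested genes. Their median log2 fold change was -0.09. Ppib, the cyclophilin B of the P3h1 complex, was at 267 ± 14.3 and 235 ± 30.0 CPM (log2 fold change 0.18, standard error 0.13, edgeR FDR 0.316). For Fkbp9, a relative of Fkbp10, the log2 fold change was -0.67 (standard error 0.28, edgeR FDR 0.114).

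Among the 8 tested propeptide proteinases and enhancers outside the 9 genes, 0 rose and 1 fell, against 7.5% and 9.25% of all tested genes, so that 1 of 8 is near the background. All 8 had a log2 fold change below 0, with a median of -0.31. The gene that fell was Sfrp2, which encodes a secreted frizzled-related protein reported to enhance the C-proteinase. It averaged 261 ± 43.1 CPM in BAPN veins against 549.7 ± 227 CPM in vehicle veins (SD, n = 4 each), a log2 fold change of -1.08 (standard error 0.29, edgeR FDR 0.0356). For Tll1, a C-proteinase related to Bmp1, the value was -1.10 on the log2 scale (standard error 0.33, edgeR FDR 0.0547, DESeq2 FDR 0.0108). Fn1, fibronectin, and Sparc, a collagen-binding matrix protein, which are the most expressed of this list, had log2 fold changes of -0.06 (FDR 0.905) and -0.40 (FDR 0.441) in edgeR. The call on Sfrp2 was lost in 6 of the 8 fits that left out 1 library, all but those without Vehicle 2 or Vehicle 3. It was also lost with sex as a covariate, with the replicate number as a block and in females alone. In those fits 7.96%, 4.76% and 0.762% of all tested genes were called.

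The general ER folding genes, which serve all secreted proteins, rose in part. 5 of 20 were higher with BAPN and 0 lower in edgeR, 16 of the 20 had a log2 fold change above 0, and their median was 0.32. Over all tested genes 7.5% were higher, 9.25% were lower, and 6028 of 11682 lay above 0. Hsp90b1, the ER chaperone GRP94, averaged 803 ± 62.2 CPM in BAPN veins and 503.7 ± 75.5 CPM in vehicle veins (SD, n = 4 each), with a log2 fold change of 0.67 (standard error 0.15, edgeR FDR 0.0230). The other genes that rose were Creld2 (0.74), Fkbp2 (0.72), Dnajb11 (0.57) and Manf (0.46), with edgeR FDR of 0.0308, 0.0148, 0.0186 and 0.0293. They encode ER-resident proteins, Dnajb11 a co-chaperone of Hspa5 and Manf and Creld2 factors known from ER stress. This count of 5 was 1 without Vehicle 1, 2 without BAPN 2 or without BAPN 3, 3 without Vehicle 4, 2 with sex as a covariate, 3 by total counts, 0 with the replicate number as a block, 1 in females alone and 7 in DESeq2. Over all tested genes 16.8% were called, and 3.4% without Vehicle 1, 10.5% without BAPN 2, 6.38% without BAPN 3 and 8.24% without Vehicle 4. The share was 7.96% with sex as a covariate, 14.3% by total counts, 4.76% with the block, 0.762% in females alone and 27.4% in DESeq2. Fkbp2 was past the threshold in all 8 fits that left out 1 library, Dnajb11 in 7, Hsp90b1 in 5, Manf in 4 and Creld2 in 1.

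Calr, calreticulin, averaged 1166 ± 4.10 CPM in BAPN veins and 989 ± 40.7 CPM in vehicle veins (SD, n = 4 each) without overlap, at a log2 fold change of 0.24 (edgeR FDR 0.205, DESeq2 FDR 0.00664), a size close to the 0.27 of P4hb. For Hspa5, the chaperone BiP, it was 0.54 (standard error 0.20, edgeR FDR 0.0779, DESeq2 FDR 0.03), also without overlap. Calr is among the most expressed of this list, as the rule for naming genes asks, and Hspa5 was named after its values were seen.

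**Figure D5:**
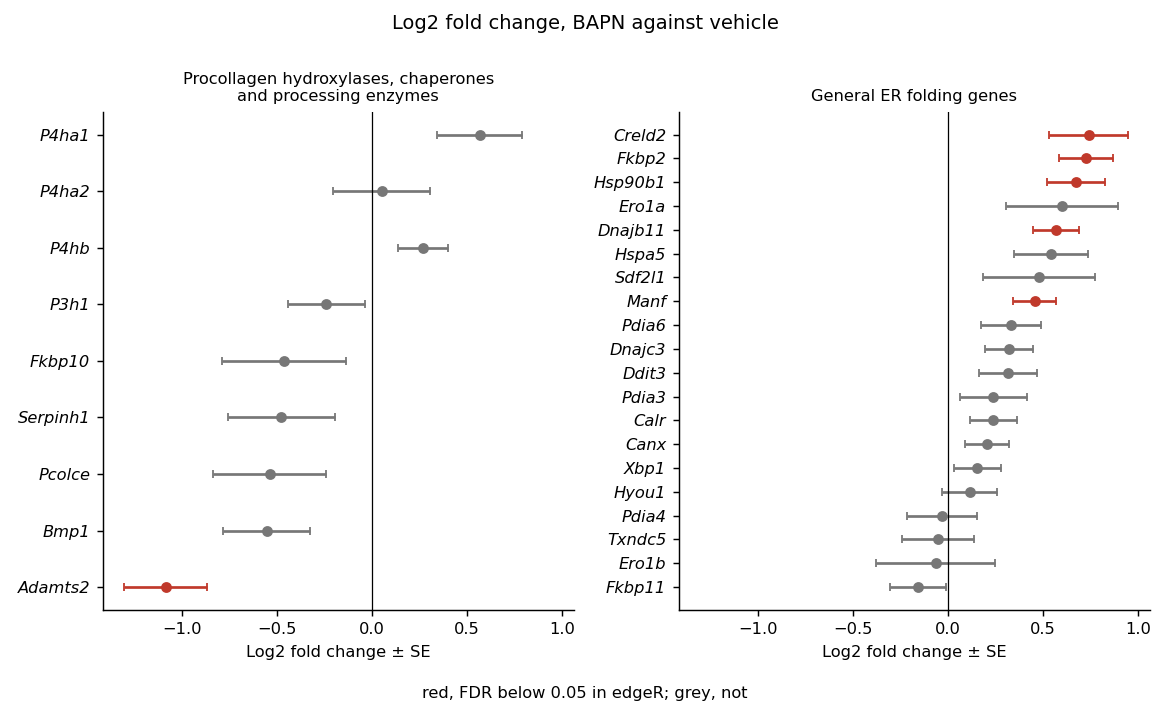
Log2 fold change ± standard error, BAPN against vehicle (n = 4 each), of the 9 genes on the left and of the 20 tested general ER folding genes on the right, in red where the edgeR FDR is below 0.05. Adamts2 is the one red point on the left, below 0, and the 5 red points on the right, Creld2, Fkbp2, Hsp90b1, Dnajb11 and Manf, lie above 0.

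Of 18 tested genes for export of procollagen from the ER, 2 rose and 0 fell in edgeR, with a median of -0.21, against 7.5% and 9.25% of all tested genes. DESeq2 called 2 higher and 2 lower, the latter Sec23a and Mbtps1, where it called 27.4% of all tested genes in either direction. The 2 that rose in edgeR were Sar1b (log2 fold change 0.55, standard error 0.13, edgeR FDR 0.0248), a GTPase of the COPII coat, and Mia2 (0.40, standard error 0.11, FDR 0.0319), a cargo receptor at ER exit sites. With 1 library left out, Sar1b was lost without BAPN 2, BAPN 3 or Vehicle 1, and Mia2 in 5 of the 8 fits, all but those without BAPN 2, Vehicle 2 or Vehicle 3. Sec31a, a coat subunit, and Mbtps1, the site-1 protease, had log2 fold changes of -0.40 (FDR 0.103) and -0.44 (FDR 0.0585) in edgeR. Of the 8 tested fibril-forming collagen genes, 0 were past the edgeR threshold, 2 had an unadjusted p below 0.05 and DESeq2 called 2, Col1a1 and Col3a1, both lower, where these shares of all tested genes were 16.8%, 35.8% and 27.4%. The counts for the collagens do not exceed this background. With sex as a covariate DESeq2 called 0 of the 8, where it called 21.5% of all tested genes. 7 of the 8 lay below 0, with a median of -0.72.

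The genes whose levels ran most alike with those of Serpinh1 and of P4hb over the 8 libraries were different ones. For Serpinh1 the 5 highest Pearson r were those of Slc2a13 (0.9955), Hhipl1 (0.988), Olfml2b (0.9867), B3gnt9 (0.9851) and Adgra3 (0.9834). Among the other 8 genes, Serpinh1 ran with Fkbp10 (0.97), P3h1 (0.96) and Bmp1 (0.96), less with Pcolce (0.91) and Adamts2 (0.82), and with P4ha1 it had an r of -0.76. For P4hb the 5 highest were Ncl (0.9784), Eif3c (0.9764), Ppp4r3b (0.9724), Timmdc1 (0.9695) and Acp1 (0.9677). Its r with Calr was 0.95, with Hsp90b1 0.93 and with Hspa5 0.83, against -0.27 with Serpinh1. These are descriptions over 8 libraries that include the difference between the groups.

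Promoters are shown for Serpinh1, which had the highest r with Col1a1 of the 9, for P4hb and the ER folding genes set beside it, and for Adamts2. RefSeq promoters of assembly GRCr8, from 250 bases before to 50 after each gene start, were matched by symbol for 7 of the 9 genes (all but Fkbp10 and Bmp1) and for 16 of the 20 ER folding genes. A heat shock element, searched on both strands as GAA, TTC and GAA in that order with 2 bases of any kind between each, was in 0.798% of 33469 promoters and in 1 of the 7, that of Serpinh1. It lay 22 bases before the start on the minus strand of chr1:163062991-163063019, within the RefSeq span of a longer transcript of the gene, and its letters are in capitals, here read on the gene's strand:
Serpinh1: ttccaactTTCCAGAAGTTTCttaggaca

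The ER stress response element, searched on both strands as CCAAT and CCACG with 9 bases of any kind between them, was in 0.0657% of all promoters, in 0 of the 7 and in 8 of the 16 ER folding genes, which were Calr, Canx, Creld2, Dnajc3, Ero1b, Hsp90b1, Hspa5 and Xbp1. Of these, Creld2 and Hsp90b1 were past the edgeR threshold, while Fkbp2 and Dnajb11, which also rose, had promoters without the element. The element was thus present in genes that rose and in genes that did not pass, and absent from some that rose. Matches are printed for the genes named in the ER folding results, all with higher means with BAPN. The matches of Hsp90b1 (minus strand, chr7:23012342-23012370), Creld2 (plus strand, chr7:121789234-121789262), Hspa5 (plus strand, chr3:38452968-38452996) and Calr (plus strand, chr19:40213130-40213158) are in capitals, either forward or as the reverse complement:
Hsp90b1: gagtgCGTGGTGAGGCACGATTGGtgggt
Creld2: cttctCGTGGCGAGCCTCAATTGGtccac
Hspa5: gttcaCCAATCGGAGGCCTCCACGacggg
Calr: caacgCGTGGTCGACCCTGATTGGcccag

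The shorter box CCAAT, which is also the first part of the ER stress response element, was in 37.5% of all promoters on either strand, in 14 of the 16 ER folding genes and in 2 of the 7, P3h1 and P4hb. The P4hb stretch, 160 bases up to the gene start on the minus strand of chr10:106346912-106347071, holds it in capitals without the second part of the element at the spacing searched. The Adamts2 stretch, 150 bases up to the gene start on the plus strand of chr10:35421880-35422029, is shown because that gene fell, and it holds none of the 3 motifs:
P4hb: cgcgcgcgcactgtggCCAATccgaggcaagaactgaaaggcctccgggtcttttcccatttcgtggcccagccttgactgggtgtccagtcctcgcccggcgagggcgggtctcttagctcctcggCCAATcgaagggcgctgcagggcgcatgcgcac
Adamts2: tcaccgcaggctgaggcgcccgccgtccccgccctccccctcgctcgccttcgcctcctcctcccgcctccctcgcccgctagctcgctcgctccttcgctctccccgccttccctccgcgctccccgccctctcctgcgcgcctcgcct
A match is a match of letters and not a measured binding site.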

How the data were processed

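Total RNA was depleted of ribosomal RNA and made into stranded libraries by the authors, and the submitters' processing notes name bcl2fastq 2.17, Trim Galore and STAR. The counting tool, its strand setting and the genome build are not given in the sources used here, so reads of overlapping or near-identical genes may be divided in ways that cannot be checked. The authors deposited raw counts, whole numbers of reads per gene, with no normalization, and 177 names stand for more than 1 listed gene.

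The counts were tested here with edgeR 4.0.16 (R 4.3.3, TMM, quasi-likelihood F test, a model of treatment alone). Genes were kept at a base mean of 100 or more, and these held 99.5% to 99.66% of each library's counts. The threshold was an FDR below 0.05 over all tested genes. Standard errors are from limma 3.58.1 (voom), and DESeq2 1.42.0, the successor of the tool the study names, was an alternative. Log2 CPM used a prior count of 2. The exact permutation tests were two-sided, over 70 arrangements for the groups and 40320 pairings for correlations. P-values set a difference or a correlation against the spread between these rats. No pair of libraries of the same group agreed within counting noise (chi-square per degree of freedom 68.58 to 320.8). Pairs across the groups were not compared, and no batch is named in the labels.

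The members and gene lists were chosen with earlier results of these data known. Named are the members, the genes of each list that passed the threshold and the 2 most expressed, Col1a1, Col3a1, and the 5 genes most alike with Serpinh1 and with P4hb. Hspa5, Tll1, Sec23a and Dsg3 were added after their values were seen. The alternatives were other scalings and filters, DESeq2, libraries thinned to equal totals, a block for the replicate number, a covariate for sex, females alone, another prior count, other collagen denominators, and each library left out. The sex interaction, DESeq2 with sex, and the correlation of deviations were added after seeing the data. Levels are compared between groups and not between genes, since no gene length was used.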

Additional observations from a re-analysis of the deposited data

Results flagged for a closer look

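2 values among the genes of the pathway lay far from the rest of their group, both in BAPN 3. Sfrp2 had 196.4 CPM there against 277 to 289 CPM for the rest of the group, and the gap was 0.871 of the group's range, past Dixon's critical value for 4 samples. For Fn1 the value of BAPN 3 was 8554 CPM against 10956 to 11284 CPM, and the gap was 0.88 of the range. These are 2 of 72 groups examined over 36 genes, and chance puts about 1 in 20 groups past the critical value. None of the 9 hydroxylase, chaperone and processing genes had such a value in either group, Vehicle 4 included.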

How the results depend on the processing

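Of the 9 genes, 1 passed in the reported fit, 2 in DESeq2, 0 with the replicate number as a block, 0 in females alone, and 0 to 2 with 1 library left out (0 without Vehicle 1, 2 without Vehicle 2). Over all tested genes 16.8% passed, 27.4% in DESeq2, 4.76% with the block, 0.762% in females alone and 3.4% without Vehicle 1, and 2215 genes passed without Vehicle 2, against 1957. At an unadjusted p below 0.05, edgeR counted 1 in the block fit and 1 in females alone, both Adamts2, and 2 without Vehicle 1. In the reported fit 35.8% of all tested genes had such a p. That share is not given for the other fits, so unadjusted counts in them, also of the pathway genes, have no background. Of the 66 pathway genes outside the 9, 8 passed, 7 higher and 1 lower, against 15 in DESeq2 (9 higher and 6 lower), 3 with sex as a covariate, 1 in females alone, 0 with the block (14 at an unadjusted p below 0.05), and 1 (without Vehicle 1) to 12 (without Vehicle 2) with 1 library left out, with 5, 3 and 2 without BAPN 1, 2 and 3 and 4 without Vehicle 4. Same-numbered rats share only a number (correlations of their deviations 0.0944, -0.2647, 0.2688 and -0.1401), and with the block Adamts2 had a log2 fold change of -1.07 at an FDR of 0.061. Signs reversed for P4ha2 (-0.0057 by total counts, and -0.15 to 0.18 with 1 library left out, being -0.077 without BAPN 4 and -0.15 without Vehicle 2) and, in females alone, for P3h1 (0.081), Fkbp10 (0.12) and Serpinh1 (0.022). Genes apart in their ratio to collagen numbered 1, 4 in females alone (Adamts2 lower, 3 higher), and 1 to 5 with 1 library left out (5 without Vehicle 2, 3 without BAPN 1 or BAPN 4, 2 without BAPN 2, Vehicle 1 or Vehicle 4). Of all tested genes 10.7% lay apart with BAPN higher, 12.9% in females alone, 65.5% without Vehicle 2 and 10.8% to 15.5% without another library. Genes correlated with Col1a1 numbered 3, where 3.12% of all tested genes passed, and 0 by Spearman rho, where 0.0% did. The count was 5 with Col3a1, 0 without Vehicle 3 and 4 (3 at an unadjusted p below 0.05) and 0 as deviations from group means. With 1 library left out it was 0 to 3 (3 without Vehicle 2, 1 without BAPN 4, otherwise 0). Fewer pairings, without libraries or within groups, also limit p. No share of all tested genes is given for these settings, so their counts have no background. Scaling by total counts gave 504 higher and 1161 lower calls over all genes, against 876 and 1081. The causes were not tested.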

Other observations

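Markers of other cell types were read beside these genes. By edgeR 9.25% of all tested genes were lower with BAPN and 7.5% higher. Of 9 tested endothelial markers, 4 were lower with BAPN in edgeR, and the summed level was 509 to 684 CPM with BAPN and 848 to 1634 CPM with vehicle. Of the T cell markers 2 of 9 tested were higher, while their summed level was 384 to 470 CPM with BAPN and 307 to 523 CPM with vehicle. Of the B cell and plasma cell markers 2 of 5 were higher, summing to 227 to 532 CPM with BAPN and 141 to 271 CPM with vehicle. The part of these cells in the levels of the hydroxylase, chaperone and ER folding genes was not tested. Of the adipocyte markers 1 of 9 tested was lower (6 in DESeq2), 8 had a log2 fold change below 0 and the median was -1.29, although the list summed to 1397 to 3139 CPM with BAPN and 723 to 2101 CPM with vehicle. Of the 2 tested skeletal muscle markers 0 passed in edgeR and 1 in DESeq2. Of the keratinocyte markers 1 of 2 tested was higher (Dsg3, edgeR FDR 0.0297), and the list summed to 25.9 and 33.9 CPM in BAPN 1 and 2, 8.395 and 5.32 CPM in BAPN 3 and 4, and 4.94 to 9.09 CPM with vehicle, with Ivl and Lor at 0 in every library.

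In males and females apart, Serpinh1 was at a mean of 1053 CPM in the 3 BAPN females and 1037 CPM in the 2 vehicle females, and at 782 CPM in the 1 BAPN male and a mean of 1702 CPM in the 2 vehicle males. The interaction of sex and treatment was -1.14 on the log2 scale (edgeR FDR 0.417), with 1 BAPN male only, and was not past the threshold for any of the 9 genes.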
